A study of Homo sapiens with 6 samples.

Results

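The 39 genes described here encode glycolysis enzymes and their transporters (25 genes) and the hypoxia-inducible factors (HIFs), their regulators and hypoxia-responsive genes (14 genes). They were the rows of the gene count table whose symbols were on a fixed list of 39, of 23346 genes in the table, and 35 of them passed the filter on low counts (over 1 CPM, a gene's counts scaled to a common library size, in at least 3 libraries), as did 12186 genes in all. Expression was measured by polyA RNA-seq in BT549, an established human breast cancer line of mesenchymal type with WT genotype. All 6 libraries came from cells transfected with 20 nM siRNA and cultured in medium that was changed 6 h later, with RNA analysed at 6 d. In 3 libraries the siRNA was a mix of 3 siRNAs against BNC2, which encodes basonuclin-2, a zinc-finger protein, and in 3 it was the negative control, NC siRNA. The groups tell how expression differed between cells given the BNC2 siRNA mix and cells given NC siRNA, in 1 cell line. With 1 mix and 1 control, loss of BNC2 and other effects of the siRNAs cannot be told apart in these libraries. The methods call the libraries of a group biological replicates, and p-values measure the spread between these samples.

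Glycolysis splits glucose into pyruvate. Glucose enters through facilitative transporters, is phosphorylated by hexokinase, and is committed to the pathway by phosphofructokinase, and the pyruvate formed is either oxidised in mitochondria or reduced to lactate and exported. In low oxygen, the HIF alpha subunits escape prolyl hydroxylation and degradation through VHL, pair with ARNT, and activate genes that carry the core hypoxia response element, among them many genes of glycolysis. Cancer cells often run glycolysis with oxygen present.

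The 6 libraries held 16093978 to 18246254 counts on genes, so that 3 counts amounted to 0.168 to 0.191 CPM. Library totals overlapped between the groups, and MALAT1, a nuclear non-coding RNA and the most abundant gene, took 1.79% to 2.63% of counts with NC siRNA and 1.15% to 1.33% with BNC2 siRNA. The part of that difference in the results was not tested. BNC2 itself was at 65.6, 51.5 and 58.6 CPM with NC siRNA and 35.5, 36.6 and 41.6 CPM with BNC2 siRNA, which do not overlap (log2 fold change -0.63, SE 0.09, edgeR adjusted p = 8.2e-06), so that 64.6% of the control level was left. Summed over 5 mesenchymal markers (VIM, FN1, CDH2, ZEB1 and SPARC), the libraries held 6367 to 6461 CPM with NC siRNA and 6501 to 6755 CPM with BNC2 siRNA. Within that sum all 5 were called, from CDH2, which was higher (log2 fold change 1.36 ± 0.05, SE), to SPARC, which was lower (-0.52 ± 0.05). The 5 epithelial markers together reached 0.241 to 0.676 CPM and 0.814 to 1.30 CPM, with EPCAM and ESRP1 at 0 in every library. None of them passed the filter. Fitted without it, ESRP2 was called higher (mean 0.321 and 1.05 CPM, edgeR adjusted p = 9.1e-04). KRT19 was lower (0.190 and 0.019 CPM) and was not called in that fit. The 3 leukocyte markers reached 1.75 to 2.25 CPM and 0.872 to 1.02 CPM, and the 3 endothelial markers 0.241 to 0.560 CPM and 0 to 0.407 CPM. Of these only CD14, a leukocyte marker, passed the filter, and it was called lower (log2 fold change -1.42 ± 0.31, SE). The endothelial marker VWF was called lower when fitted without the filter (edgeR adjusted p = 0.0043). In bulk RNA, fewer cells of a type and less RNA per cell cannot be told apart.

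Of the 35 genes tested, 19 were higher and 8 lower with BNC2 siRNA at an adjusted p of at most 0.05 (edgeR's quasi-likelihood test with Benjamini-Hochberg adjustment over all genes tested, the test behind every adjusted p given here). Calls were frequent in this comparison: 72.9% of all genes tested were called, 36.6% higher and 36.2% lower. The 27 calls among the 35 genes (77.1%) were therefore close to the background share, whereas the split between directions was 54.3% higher and 22.9% lower. Groups did not overlap for 28 of the 35 genes (80.0%), against 74.9% of all genes tested. A call with a log2 fold change of at least 1 in size was made for 6 of them (17.1%), 5 higher and 1 lower, against 18.1% of all genes. The median log2 fold change was 0.21 over the 35 genes and 0.00 over all genes tested. With libraries scaled by total counts alone, the median over the 35 genes was 0.13. Among the glycolysis genes 14 of 24 were higher and 3 lower, while the 11 HIF and hypoxia response genes tested divided evenly, with 5 in each direction and 1 not called.

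**Figure D1:**
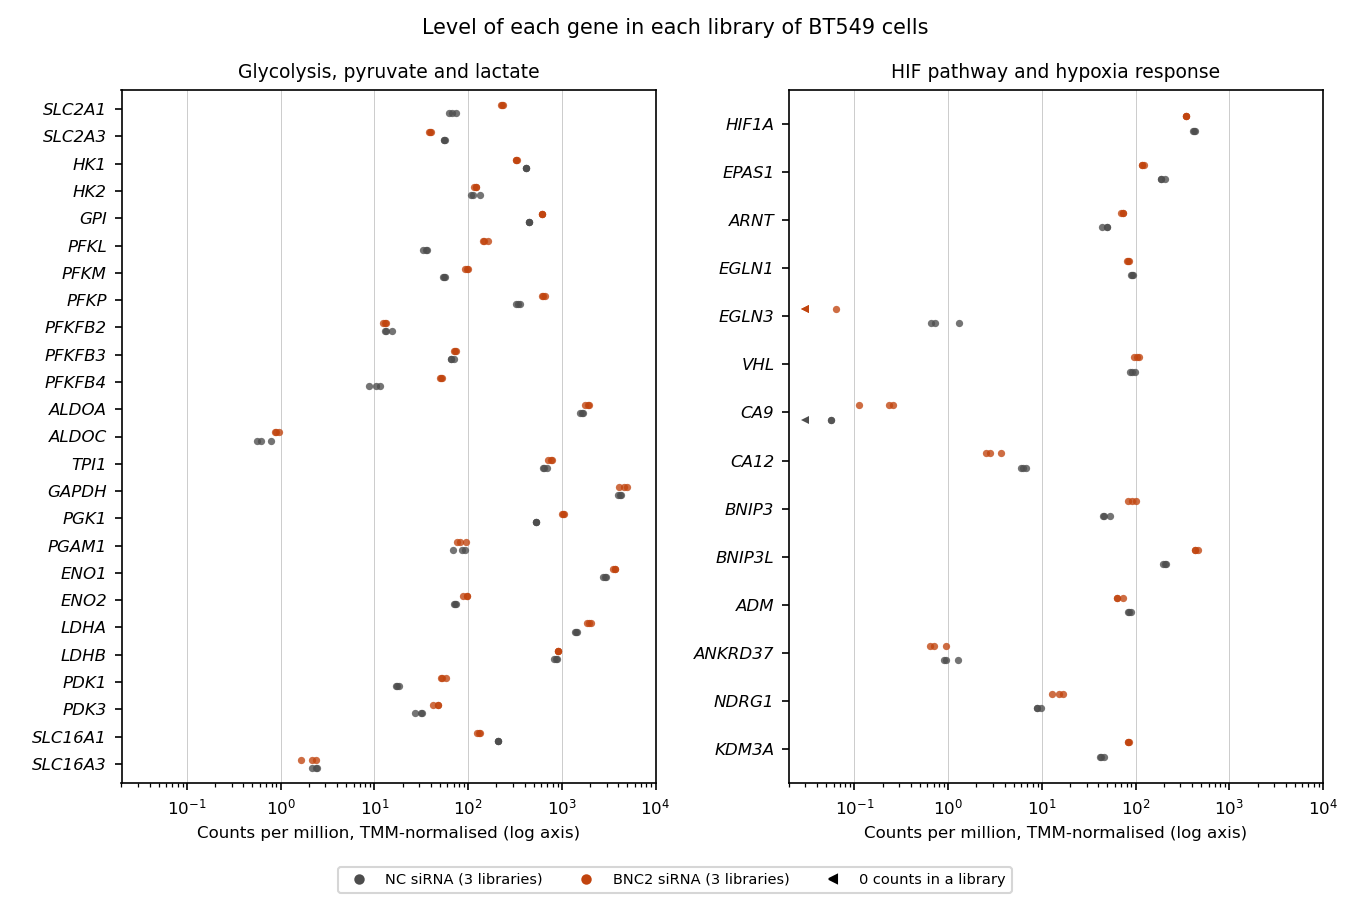
Level of each of the 39 genes in each of the 6 libraries, in TMM-normalised CPM on a log axis, with NC siRNA in grey, BNC2 siRNA in orange and arrowheads for libraries with 0 counts. For most genes the 3 libraries of a group lay close together, and PFKFB4, PFKL, SLC2A1 and PDK1 show gaps of 3.07-fold to 5.00-fold between the groups.

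The bases before the start sites are shown for 6 of the genes that rose and for HK2, which did not pass the test, to show where the core hypoxia response element stands in each. The element was searched as ACGTG or GCGTG on both strands in the 250 bases before each start annotated by RefSeq (GRCh38.p14). Overlapping matches, such as both strands of CACGTG, are joined, and matches are in capitals. PFKFB4 (chr3:48556804-48557053, minus strand) and PFKL (chr21:44299803-44300052, plus strand) had 1 match each. SLC2A1 (chr1:42958869-42959118, minus strand) had none in this window, which says only that these letters are not in it. For PDK1 the start with matches is shown (chr2:172555840-172556089, plus strand), and its other annotated start had none. PGK1 (chrX:78103998-78104247, plus strand) had 3 matches and BNIP3 (chr10:131981924-131982173, minus strand) had 5. HK2, which was not called, had 4 matches before the start shown (chr2:74834920-74835169, plus strand) and 3 before its other start. The genes shown are examples and not a ranking. KDM3A, with 1 match before each start, rose about as much as BNIP3 (log2 fold change 0.94 and 0.93) and is not shown, nor is any gene called lower. Each sequence reads 5′ to 3′ on the strand of the gene.
PFKFB4: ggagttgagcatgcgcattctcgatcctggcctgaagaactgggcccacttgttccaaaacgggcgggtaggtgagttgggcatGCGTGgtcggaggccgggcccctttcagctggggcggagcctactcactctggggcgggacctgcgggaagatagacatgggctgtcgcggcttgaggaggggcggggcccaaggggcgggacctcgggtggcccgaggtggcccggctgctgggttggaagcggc
PFKL: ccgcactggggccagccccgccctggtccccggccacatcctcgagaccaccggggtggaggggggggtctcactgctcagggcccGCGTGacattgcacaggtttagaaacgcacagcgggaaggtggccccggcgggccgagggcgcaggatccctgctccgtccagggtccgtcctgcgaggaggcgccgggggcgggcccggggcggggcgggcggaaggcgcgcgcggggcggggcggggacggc
SLC2A1: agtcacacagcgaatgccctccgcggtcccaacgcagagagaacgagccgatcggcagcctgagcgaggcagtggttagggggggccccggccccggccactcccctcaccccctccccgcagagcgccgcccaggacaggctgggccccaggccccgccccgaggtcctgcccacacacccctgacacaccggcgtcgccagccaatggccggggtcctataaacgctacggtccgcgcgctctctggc
PDK1: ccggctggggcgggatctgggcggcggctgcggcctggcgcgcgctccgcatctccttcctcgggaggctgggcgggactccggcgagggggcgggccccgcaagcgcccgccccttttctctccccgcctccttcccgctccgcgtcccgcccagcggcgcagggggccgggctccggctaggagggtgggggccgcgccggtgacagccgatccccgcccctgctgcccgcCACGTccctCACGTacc
PGK1: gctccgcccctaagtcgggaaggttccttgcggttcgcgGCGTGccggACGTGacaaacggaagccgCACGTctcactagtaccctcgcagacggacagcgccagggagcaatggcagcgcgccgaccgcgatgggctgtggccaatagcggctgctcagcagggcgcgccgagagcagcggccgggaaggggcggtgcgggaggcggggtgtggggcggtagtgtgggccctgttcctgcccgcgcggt
BNIP3: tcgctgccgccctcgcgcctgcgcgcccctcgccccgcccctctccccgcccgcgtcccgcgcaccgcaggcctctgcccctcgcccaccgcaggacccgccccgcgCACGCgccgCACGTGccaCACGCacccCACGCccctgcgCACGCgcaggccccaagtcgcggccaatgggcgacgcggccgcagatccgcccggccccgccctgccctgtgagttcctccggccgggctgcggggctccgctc
HK2: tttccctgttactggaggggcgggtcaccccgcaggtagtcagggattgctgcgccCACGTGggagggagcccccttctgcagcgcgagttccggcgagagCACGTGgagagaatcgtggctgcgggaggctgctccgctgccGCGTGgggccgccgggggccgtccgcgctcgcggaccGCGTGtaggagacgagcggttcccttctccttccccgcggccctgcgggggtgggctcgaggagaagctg

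Of the 39 genes, 33 had such an entry and 28 of these (84.8%) had a match before at least 1 start, against 47.4% of all genes. By window, 37 of 61 (60.7%) held a match, against 43.2% of all windows of that length. The 33 genes had 61 windows and all 27305 genes 35116, so the 33 had more starts per gene in which to find a match. Windows of 1 gene can overlap and count a site again, as for KDM3A, whose matches at -26 and -116 are 1 site. The list also holds genes chosen as hypoxia-responsive, so the shares are not those of genes picked without regard to the element. SLC2A3, PFKFB2, SLC16A1, VHL, BNIP3L and NDRG1 had no entry. A match was present for 15 of the 17 genes with an entry called higher, for 6 of the 6 called lower and for 7 of 10 genes not called or not tested. A match is a description of letters, and binding was not measured.

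The mRNAs of the 2 glucose transporters among the 39 genes changed in opposite directions. SLC2A1 (GLUT1, the widely expressed transporter, minus strand of chr1:43391024-43424564 in GRCh37) was at 75.0, 67.8 and 63.3 CPM with NC siRNA and 237, 230.1 and 227 CPM with BNC2 siRNA. All 3 BNC2 siRNA libraries lay above every control, a 3.36-fold difference (log2 fold change 1.75, SE 0.07, edgeR adjusted p = 9.0e-13). SLC2A3 (GLUT3, a high-affinity transporter) was at 57.3, 55.6 and 55.3 CPM with NC siRNA and 40.1, 39.2 and 37.8 CPM with BNC2 siRNA. Here all BNC2 siRNA libraries were below every control (log2 fold change -0.52, SE 0.07, edgeR adjusted p = 2.3e-06). Per kilobase of transcript, SLC2A1 made up 58.0% ± 1.64 (SD, n = 3) of the CPM of the pair with NC siRNA and 87.0% ± 0.111 with BNC2 siRNA, and the sum of the pair went from 35.0 ± 2.03 to 78.5 ± 1.87 CPM per kb. The ratio of SLC2A1 to SLC2A3 moved by 2.26 on the log2 scale (0.29 ± 0.10 against 2.55 ± 0.01, mean ± SD over 3 libraries).

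The first steps inside the cell differed by smaller folds. HK1, the hexokinase of most tissues, was at 410.5, 418 and 412 CPM with NC siRNA and 327, 329 and 322 CPM with BNC2 siRNA, with no overlap and a fall to 78.9% of control (log2 fold change -0.34, SE 0.05, edgeR adjusted p = 1.4e-05). HK2, the inducible hexokinase of muscle, fat and many tumours, was at 134, 112 and 109 CPM with NC siRNA and 116, 122 and 123 CPM with BNC2 siRNA. Its groups overlapped and it did not pass the test (log2 fold change 0.02, SE 0.07, edgeR adjusted p = 0.79), and its sign turned when libraries were scaled by total counts alone (log2 fold change -0.055) and without NC siRNA replicate 2 (-0.033) or replicate 3 (-0.056). HK1 supplied 84.5% ± 1.59 of the hexokinase CPM per kb with NC siRNA and 80.9% ± 0.516 with BNC2 siRNA, and the sum of the pair was 136 ± 2.06 against 112 ± 0.998 CPM per kb. GPI, which isomerises glucose 6-phosphate to fructose 6-phosphate, was at 443, 443 and 448 CPM with NC siRNA and 616, 613 and 609 CPM with BNC2 siRNA. Replicates of GPI differed little, and its rise of 1.38-fold was called (log2 fold change 0.46, SE 0.05, edgeR adjusted p = 4.0e-07).

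Phosphofructokinase, the committing step, was higher for each of its 3 isozymes. PFKL, the liver isozyme (plus strand of chr21:45719934-45747259, GRCh37), was at 35.5, 36.2 and 32.7 CPM with NC siRNA and 163, 149 and 144 CPM with BNC2 siRNA. The groups stood far apart, with a 4.37-fold difference (log2 fold change 2.13, SE 0.07, edgeR adjusted p = 1.6e-13). PFKM, the muscle isozyme, was at 56.0, 56.0 and 54.1 CPM with NC siRNA and 97.5, 91.8 and 101 CPM with BNC2 siRNA (log2 fold change 0.80, SE 0.06, edgeR adjusted p = 6.2e-09). PFKP, the platelet isozyme, was at 327, 355 and 342 CPM with NC siRNA and 661, 610.5 and 637 CPM with BNC2 siRNA (log2 fold change 0.90, SE 0.06, edgeR adjusted p = 4.2e-10). Neither of these overlapped between groups, and their folds of 1.75 and 1.86 were alike beside that of PFKL. PFKP was the main isozyme per length in both groups, at 81.3% ± 0.800 of the CPM per kb with NC siRNA and 74.3% ± 0.279 with BNC2 siRNA, while PFKL went from 7.49% ± 0.416 to 16.1% ± 0.656. The sum of the 3 isozymes went from 160 ± 5.46 to 326 ± 12.9 CPM per kb, 2.04 times the control. The log2 ratio of PFKL to PFKP was -3.28 ± 0.09 with NC siRNA and -2.06 ± 0.06 with BNC2 siRNA.

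Fructose 2,6-bisphosphate, the activator of phosphofructokinase, is made and removed by the bifunctional PFKFB enzymes, and of these only PFKFB4 was called among the 3 tested. PFKFB4 (minus strand of chr3:48555117-48599448, GRCh37) was at 10.4, 11.5 and 8.79 CPM with NC siRNA and 51.2, 52.9 and 49.7 CPM with BNC2 siRNA. This was the largest rise among the 35 genes, at 5.00-fold (log2 fold change 2.32, SE 0.09, edgeR adjusted p = 2.4e-12), from a low level. PFKFB3, the isozyme with the strongest kinase activity, was at 71.1, 66.1 and 66.5 CPM with NC siRNA and 70.8, 71.6 and 74.2 CPM with BNC2 siRNA, with overlapping groups (log2 fold change 0.09, SE 0.06, edgeR adjusted p = 0.21). PFKFB2, the heart isozyme, was at 15.5, 13.3 and 12.9 CPM with NC siRNA and 12.5, 12.9 and 13.2 CPM with BNC2 siRNA and overlapped too (log2 fold change -0.11, SE 0.11, edgeR adjusted p = 0.35). With NC siRNA, PFKFB3 held 75.6% ± 1.66 of the CPM per kb of the 3 genes and PFKFB4 14.6% ± 1.73. With BNC2 siRNA the shares were 49.5% ± 1.14 and 45.0% ± 1.24, so the level per length of PFKFB4 came near that of PFKFB3.

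**Figure D2:**
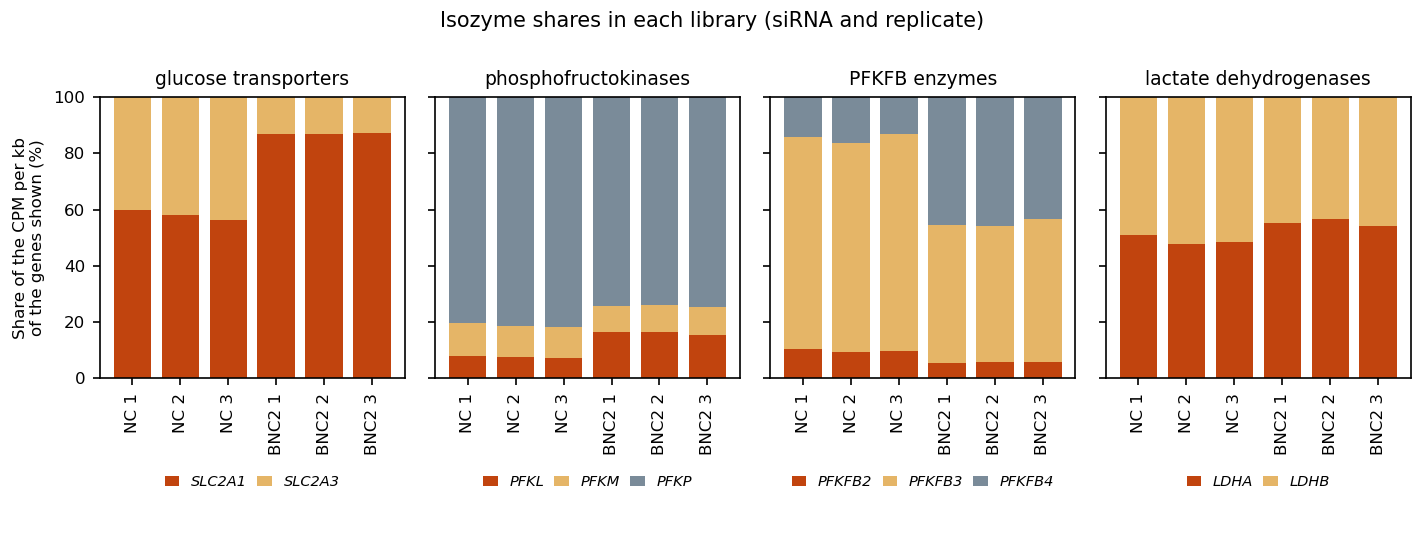
Share of each isozyme in the summed CPM per kb of the genes shown, in percent, for each library (NC 1 to 3 and BNC2 1 to 3). The SLC2A1 share went from a mean of 58.0% to 87.0%, that of PFKL from 7.49% to 16.1%, that of PFKFB4 from 14.6% to 45.0% and that of LDHA from 49.0% to 55.3%.

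In lower glycolysis 5 of 7 genes tested were higher (71.4%, against 36.6% of all genes tested) and none was lower. PGK1, which makes the first ATP of the pathway, was at 525, 532 and 535 CPM with NC siRNA and 1047, 1018 and 1014 CPM with BNC2 siRNA. Replicates agreed closely and the difference of 1.93-fold was the largest of this group (log2 fold change 0.95, SE 0.05, edgeR adjusted p = 7.2e-11). ALDOA, the main aldolase, was at 1561, 1655 and 1681 CPM with NC siRNA and 1971, 1889 and 1790.2 CPM with BNC2 siRNA (log2 fold change 0.21, SE 0.06, edgeR adjusted p = 0.0038). TPI1, which interconverts the triose phosphates, was at 635, 698 and 640.1 CPM with NC siRNA and 787, 765 and 713 CPM with BNC2 siRNA (log2 fold change 0.20, SE 0.06, edgeR adjusted p = 0.006). Both genes were higher in every BNC2 siRNA library, each by 1.15-fold, and TPI1 lost its call when libraries were scaled by total counts alone (log2 fold change 0.12). ENO1, the ubiquitous enolase, was at 2731, 2969 and 2867 CPM with NC siRNA and 3711, 3670.4 and 3482 CPM with BNC2 siRNA (log2 fold change 0.34, SE 0.06, edgeR adjusted p = 3.7e-05). ENO2, the neuronal enolase, was at 70.2, 74.6 and 72.8 CPM with NC siRNA and 98.5, 98.4 and 89.0 CPM with BNC2 siRNA (log2 fold change 0.40, SE 0.06, edgeR adjusted p = 3.0e-05). ENO1 and ENO2 were higher by similar folds: their log2 ratio was 5.29 ± 0.02 with NC siRNA and 5.24 ± 0.04 with BNC2 siRNA, with overlapping values, and ENO1 held 98.1% and 98.0% of the CPM per kb of the pair. ENO3, the muscle enolase, which is not among the 39 and was singled out after its value was seen, was lower, at 5.80 ± 0.177 CPM with NC siRNA and 4.41 ± 0.104 CPM with BNC2 siRNA (SD, n = 3, log2 fold change -0.40, SE 0.14, edgeR adjusted p = 0.02), a call lost with no filter on low counts (edgeR adjusted p = 0.050).

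GAPDH, which oxidises glyceraldehyde 3-phosphate and is widely used as a reference gene, was at 3995, 4192 and 4285 CPM with NC siRNA and 4993, 4579 and 4099 CPM with BNC2 siRNA. The lowest BNC2 siRNA library lay below 2 of the controls, and the gene did not pass the test (log2 fold change 0.13, SE 0.07, edgeR adjusted p = 0.088), although it did without BNC2 siRNA replicate 3 (log2 fold change 0.20). ACTB, used beside GAPDH as a reference in the study's qRT-PCR, was called higher at 4479 ± 179.9 CPM with NC siRNA and 5424 ± 273 CPM with BNC2 siRNA (log2 fold change 0.28, SE 0.06, edgeR adjusted p = 4.4e-04). PGAM1, phosphoglycerate mutase, was at 68.8, 85.1 and 91.9 CPM with NC siRNA and 95.6, 81.1 and 75.8 CPM with BNC2 siRNA, with overlapping groups (log2 fold change 0.04, SE 0.10, edgeR adjusted p = 0.72) and a sign that turned without BNC2 siRNA replicate 1 (-0.056) or NC siRNA replicate 1 (-0.091) and under scaling by total counts alone (-0.035). ALDOC, the brain aldolase, was below the filter, with 34 counts over the NC siRNA libraries and 46 over the BNC2 siRNA libraries. Its ratio of 1.40 had a 95% interval of 0.876 to 2.24 that covers counting error only. Reads that fit several places were not counted, and the annotation names 65 pseudogenes of GAPDH, 44 of BNIP3 and 13 of PGAM1. What that took from their levels was not tested.

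Around pyruvate, the largest change was in PDK1, a kinase that switches off the pyruvate dehydrogenase complex (plus strand of chr2:173420101-173473397, GRCh37). It was at 18.2, 17.0 and 17.5 CPM with NC siRNA and 52.2, 52.0 and 57.7 CPM with BNC2 siRNA, with all BNC2 siRNA libraries above every control and a 3.07-fold difference (log2 fold change 1.62, SE 0.08, edgeR adjusted p = 2.0e-11). PDK3, another kinase of the same complex, was at 32.5, 31.6 and 27.3 CPM with NC siRNA and 42.6, 47.7 and 48.3 CPM with BNC2 siRNA (log2 fold change 0.60, SE 0.08, edgeR adjusted p = 6.5e-06). Their log2 ratio went from -0.77 ± 0.13 to 0.22 ± 0.09, so PDK1 changed more than PDK3 in these libraries. LDHA, the lactate dehydrogenase subunit that favours lactate formation, was at 1465, 1397 and 1407 CPM with NC siRNA and 1932, 2030.3 and 1865 CPM with BNC2 siRNA, with no overlap (log2 fold change 0.45, SE 0.05, edgeR adjusted p = 1.5e-06). LDHB, the subunit of oxidative tissues, was at 822, 892 and 871 CPM with NC siRNA and 914, 905 and 913 CPM with BNC2 siRNA. Its groups did not overlap either, but the difference did not pass the test (log2 fold change 0.08, SE 0.05, edgeR adjusted p = 0.19). LDHA held 49.0% ± 1.67 of their CPM per kb with NC siRNA and 55.3% ± 1.18 with BNC2 siRNA.

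Of the lactate exporters, SLC16A1 was called lower, opposite to LDHA, and SLC16A3 was not called. SLC16A1 (MCT1, which moves lactate and pyruvate with protons) was at 209, 207 and 209.6 CPM with NC siRNA and 123, 135 and 131 CPM with BNC2 siRNA. Every BNC2 siRNA library was below every control, and 62.2% of the level was left (log2 fold change -0.68, SE 0.06, edgeR adjusted p = 1.1e-08). SLC16A3 (MCT4, the low-affinity exporter of glycolytic cells) was near the filter at 2.37, 2.46 and 2.17 CPM with NC siRNA and 2.38, 2.14 and 1.66 CPM with BNC2 siRNA, with overlapping groups (log2 fold change -0.17, SE 0.22, edgeR adjusted p = 0.49).

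Levels per length were set beside the log2 fold changes within the 25 glycolysis genes of the 39, which do not include the pyruvate kinase gene PKM. The 6 highest of them with NC siRNA were GAPDH (3235 ± 115 CPM per kb, SD, n = 3), ENO1 (1603 ± 66.9), ALDOA (995 ± 38.7), LDHB (661 ± 27.4), LDHA (635 ± 16.3) and TPI1 (487 ± 25.8), and their log2 fold changes lay between 0.08 and 0.45. PKM, from the list of other glycolysis genes, stood higher still, at 4321 ± 208 CPM per kb, and was lower with BNC2 siRNA (log2 fold change -0.62 ± 0.06, SE). PFKFB4, PFKL and SLC2A1, with log2 fold changes of 2.32, 2.13 and 1.75, stood at 2.92 ± 0.388, 11.97 ± 0.640 and 20.3 ± 1.75 CPM per kb. Other genes at such levels did not share these folds: SLC16A3 (0.897 ± 0.0583 CPM per kb, log2 fold change -0.17), PFKFB2 (1.97 ± 0.203, -0.11), PFKFB3 (15.1 ± 0.621, 0.09) and HK2 (21.0 ± 2.45, 0.02) were not called, and SLC2A3 (14.7 ± 0.285, -0.52) was lower. Lengths are those of the canonical GENCODE transcripts, which are newer than the annotation the reads were counted on. PDK1 was left out of comparisons per length, since its canonical transcript of 14072 bases makes its level per kilobase a poor guide.

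**Figure D3:**
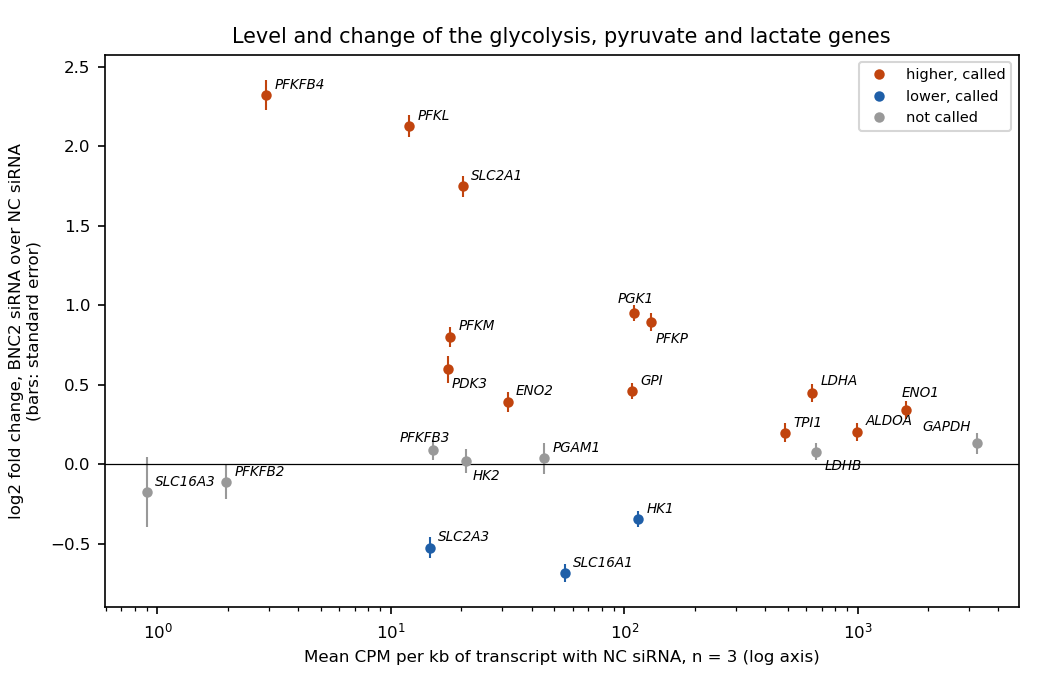
Log2 fold change (bars, standard error) against the mean CPM per kb with NC siRNA (log axis, n = 3) for the glycolysis, pyruvate and lactate genes tested among the 39, without PDK1 and without PKM, which is not one of them. The genes plotted at 487 CPM per kb or more lie between 0.08 and 0.45, and PFKFB4, PFKL and SLC2A1, at 2.92 to 20.3 CPM per kb, lie at 1.75 or more, while SLC2A3, PFKFB3, PDK3 and PFKM, within the same range of levels, lie between -0.52 and 0.80.

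The HIF subunits changed in both directions. HIF1A, the alpha subunit present in most cells (plus strand of chr14:62162231-62214977, GRCh37), was at 430.2, 421 and 414 CPM with NC siRNA and 343, 343 and 344 CPM with BNC2 siRNA. EPAS1 (HIF-2 alpha, plus strand of chr2:46520806-46613836) was at 208, 186 and 186 CPM with NC siRNA and 121, 116 and 118 CPM with BNC2 siRNA. Both alpha subunits were lower in every BNC2 siRNA library, HIF1A at 81.5% of control (log2 fold change -0.30, SE 0.05, edgeR adjusted p = 6.8e-05) and EPAS1 at 61.3% (log2 fold change -0.71, SE 0.06, edgeR adjusted p = 2.1e-08). ARNT (HIF-1 beta, the shared partner) was higher in each, at 49.8, 43.6 and 49.1 CPM with NC siRNA and 70.4, 72.7 and 74.1 CPM with BNC2 siRNA (log2 fold change 0.61, SE 0.07, edgeR adjusted p = 6.0e-07). The log2 ratio of HIF1A to EPAS1 went from 1.13 ± 0.07 to 1.53 ± 0.03. These are mRNA levels, and the alpha subunits are controlled largely through protein stability, which was not measured.

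Among the genes that set HIF stability, EGLN1 was called lower, VHL was not called and EGLN3 was near the detection limit. VHL, the recognition subunit of the ubiquitin ligase that marks HIF alpha subunits, was at 99.7, 92.1 and 87.7 CPM with NC siRNA and 96.8, 103 and 109.8 CPM with BNC2 siRNA, with overlapping groups (log2 fold change 0.15, SE 0.07, edgeR adjusted p = 0.059). It passed the test without BNC2 siRNA replicate 1 (log2 fold change 0.20) or NC siRNA replicate 1 (0.18). EGLN1 (PHD2, the main HIF prolyl hydroxylase) was at 92.4, 94.2 and 90.0 CPM with NC siRNA and 80.1, 82.8 and 84.9 CPM with BNC2 siRNA, without overlap (log2 fold change -0.16, SE 0.06, edgeR adjusted p = 0.023). That call was lost without BNC2 siRNA replicate 1 (-0.13) or replicate 2 (-0.15). It was also lost with replicate numbers as a block (-0.16) and with no filter on low counts (-0.13). EGLN3 (PHD3), below the filter, had 23, 13 and 11 counts with NC siRNA and 0, 0 and 1 with BNC2 siRNA. Scaled to depth, NC siRNA was 45.6 times BNC2 siRNA, with a 95% interval of 7.79 to 1838 from counting error only, and fitted without the filter it was called lower (edgeR adjusted p = 3.8e-08).

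Of the hypoxia response genes 4 were higher (66.7%) and 2 lower (33.3%) among the 6 tested, against 36.6% and 36.2% of all genes tested. BNIP3L (NIX, a mitophagy receptor, plus strand of chr8:26240570-26363152, GRCh37) was at 212, 206 and 197 CPM with NC siRNA and 427, 433 and 460.4 CPM with BNC2 siRNA, 2.15-fold higher (log2 fold change 1.10, SE 0.06, edgeR adjusted p = 3.4e-11). Its paralog BNIP3, with 5 matches before its start, was at 46.5, 44.5 and 53.1 CPM with NC siRNA and 100.2, 91.1 and 82.6 CPM with BNC2 siRNA (log2 fold change 0.93, SE 0.08, edgeR adjusted p = 2.8e-08). The 2 receptors rose by similar folds, and their log2 ratio overlapped between groups (-2.08 ± 0.18 and -2.27 ± 0.19). KDM3A, a histone H3 lysine 9 demethylase, was at 46.1, 43.1 and 41.7 CPM with NC siRNA and 84.2, 83.7 and 83.9 CPM with BNC2 siRNA, and its BNC2 siRNA libraries were almost equal (log2 fold change 0.94, SE 0.06, edgeR adjusted p = 1.2e-09). NDRG1, a stress-responsive metastasis suppressor, was at 8.90, 8.85 and 9.81 CPM with NC siRNA and 15.3, 12.9 and 17.0 CPM with BNC2 siRNA (log2 fold change 0.71, SE 0.12, edgeR adjusted p = 5.7e-05). No BNC2 siRNA library of these 4 genes overlapped a control.

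The 2 lower genes were a membrane carbonic anhydrase and a secreted peptide. CA12, which helps to set pH at the cell surface (minus strand of chr15:63613577-63674045, GRCh37), was at 6.31, 5.94 and 6.74 CPM with NC siRNA and 2.79, 2.54 and 3.69 CPM with BNC2 siRNA, leaving 47.3% of a low level (log2 fold change -1.08, SE 0.17, edgeR adjusted p = 2.6e-05). ADM, the precursor of the vasodilator adrenomedullin, was at 82.9, 89.8 and 84.8 CPM with NC siRNA and 72.8, 63.3 and 63.3 CPM with BNC2 siRNA, again without overlap (log2 fold change -0.37, SE 0.07, edgeR adjusted p = 1.5e-04). CA9, the carbonic anhydrase most used as a hypoxia marker, was not tested, with 1, 1 and 0 counts with NC siRNA and 4, 2 and 4 with BNC2 siRNA. Its ratio of 5.16 had an interval of 1.10 to 48.4 from counting error only, and most libraries were at or near the floor of 3 counts. Fitted without the filter, CA9 was not called (edgeR adjusted p = 0.11). ANKRD37, an ankyrin-repeat gene of the hypoxia response, had 54 counts over the NC siRNA libraries and 39 over the BNC2 siRNA libraries, too few for the filter.

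**Figure D4:**
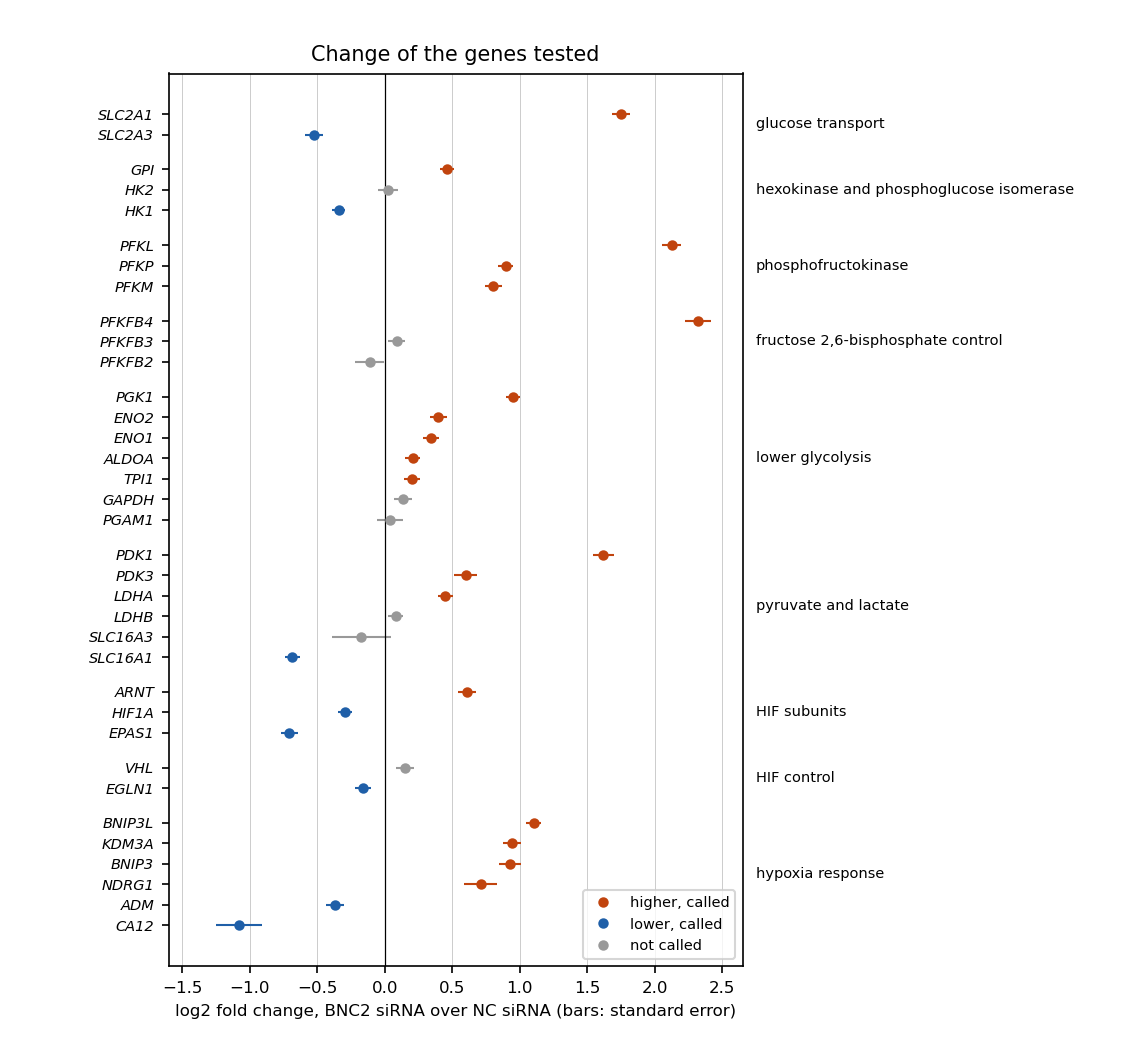
Log2 fold change with its standard error (edgeR) for the 35 genes tested, grouped by role, with genes called higher in orange, called lower in blue and not called in grey. The 3 phosphofructokinases lie above 0.80, while glucose transporters, lactate handling, HIF subunits and hypoxia response genes each hold genes on both sides of 0.

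Ratios between related genes were compared for 14 pairs, and 11 did not overlap between the groups. The levels of 74.9% of single genes tested did not overlap, which is a different measure, and no share over other pairs of genes was computed. In 2 of the 11, EGLN1 over EGLN3 and CA9 over CA12, a gene lay below the filter and the pseudocount of 0.5 CPM largely set the ratio. With 3 libraries against 3, the exact two-sided permutation test cannot go below p = 0.1, which each of the 11 reached (0.127 after Benjamini-Hochberg adjustment), so no ratio could pass 0.05. The overlapping pairs were ALDOA and ALDOC, ENO1 and ENO2, and BNIP3 and BNIP3L.

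Among other glycolysis and pyruvate genes, more were lower than higher. Of 39 on the list 20 were tested, and 5 were higher (25.0%) and 10 lower (50.0%), against 36.6% and 36.2% of all genes tested. The list had a median log2 fold change of -0.23. Its 5 tested enzymes of glycolysis and its side steps were called lower, ENO3 among them not when the filter on low counts was left out. The largest falls were in BPGM, which makes 2,3-bisphosphoglycerate (-1.39 ± 0.10, log2 fold change ± SE), and TIGAR, a fructose bisphosphatase that lowers glycolysis (-0.94 ± 0.09), followed by SLC2A8 (GLUT8, -0.70 ± 0.13) and ADPGK, the ADP-dependent glucokinase (-0.63 ± 0.07). PKM, the pyruvate kinase of the last step (listed as PKM2), singled out after its value was seen, was at 9417, 10133 and 10329 CPM with NC siRNA and 6741, 6575 and 6129 CPM with BNC2 siRNA (log2 fold change -0.62, SE 0.06, edgeR adjusted p = 9.0e-08). PCK2, the mitochondrial PEP carboxykinase, was higher by 0.87 ± 0.18, as were PDP2 (0.83 ± 0.07) and PDP1 (0.34 ± 0.06), phosphatases that oppose the PDK kinases, and DLAT (0.49 ± 0.06), a core subunit of pyruvate dehydrogenase. The pyruvate and lactate genes of this list divided evenly, with 4 higher and 4 lower of 10 tested (40.0% each). The lower ones, given here to complete the count and so outside the naming rule, were the kinase PDK2 (-0.36 ± 0.10), the mitochondrial pyruvate carrier subunits MPC1 (-0.28 ± 0.10) and MPC2 (-0.40 ± 0.07), and PDHX (-0.25 ± 0.07), a binding subunit of pyruvate dehydrogenase.

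Among 10 other HIF pathway genes tested of 12, 5 were higher and 5 lower (50.0% each, against 36.6% and 36.2% of all genes tested). Without NC siRNA replicate 2, 3 rather than 5 were higher. CUL2, the scaffold of the VHL ligase, was lower by the largest margin (93.7, 89.6 and 88.0 CPM with NC siRNA and 24.0, 26.6 and 28.8 CPM with BNC2 siRNA, with no overlap). The ligase subunits ELOB (-0.61 ± 0.08) and RBX1 (-0.42 ± 0.11) and the ARNT paralog ARNT2 (-0.46 ± 0.12) were lower too. HIF1AN (FIH, the asparaginyl hydroxylase, 0.35 ± 0.06), P4HTM (0.53 ± 0.15), the HIF coactivator CREBBP (0.44 ± 0.07) and CITED2 (0.23 ± 0.07), which competes with HIF alpha subunits for binding to CREBBP, were higher, though CITED2 overlapped between groups and lost its call without NC siRNA replicate 2 (0.19).

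Of 35 other hypoxia target genes 32 were tested, and 22 were higher (68.8%) and 7 lower (21.9%), against 36.6% and 36.2% of all genes tested. Their median log2 fold change was 0.44. Calls of at least 1 in size were made for 11 higher and 4 lower genes, 46.9% of those tested against 18.1% of all genes tested. The largest rises were in PPFIA4, a liprin (2.50 ± 0.14), TMEM45A (1.83 ± 0.08), ZNF395 (1.45 ± 0.07) and P4HA2, a collagen prolyl hydroxylase (1.44 ± 0.05). Genes that fell included HMOX1, heme oxygenase 1 (-2.99 ± 0.07), STC2, stanniocalcin 2 (-1.55 ± 0.06), and VEGFA, the angiogenic growth factor (-1.18 ± 0.06). VEGFA was at 138, 144 and 141 CPM with NC siRNA and 61.0, 64.0 and 62.1 CPM with BNC2 siRNA, so that well-known targets stood on both sides. Without BNC2 siRNA replicate 1, 4 rather than 7 genes were called lower.

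**Figure D5:**
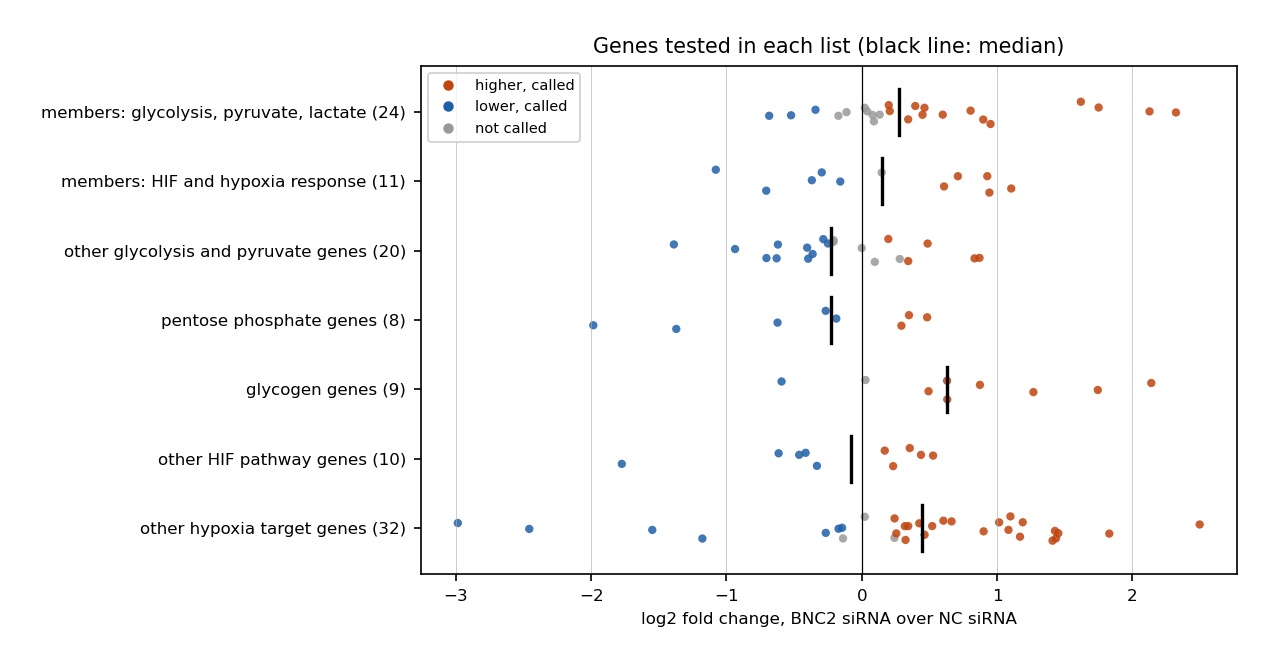
Log2 fold change of each gene tested, by list, with the number tested in brackets, calls in colour and the median as a black line. Medians were -0.23 for other glycolysis and pyruvate genes, -0.08 for other HIF pathway genes, 0.44 for other hypoxia target genes, 0.63 for glycogen genes and -0.23 for pentose phosphate genes, beside 0.00 over all genes tested.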

How the data were processed

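Total RNA of BT549 cells was polyA-selected and sequenced in 6 libraries. The authors aligned reads with STAR 2.6.1d to hg19 (GRCh37) and deposited raw gene counts of uniquely mapped reads, which equal the reverse-strand column of the library tables for all 23346 genes. Reads assigned to no gene made up 37.7% to 41.1% of a library, multimapping reads (8.68% to 9.71%) among them, and did not enter library sizes. The labels name Lipofectamine 2000 as the transfection reagent, whereas the methods name RNAiMax for siRNAs.

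Counts were analysed with edgeR 4.0.16 in R 4.3.3 (TMM scaling, quasi-likelihood test, over 1 CPM in at least 3 libraries, Benjamini-Hochberg over 12186 genes, calls at 0.05), after testing the script on simulated data. The first principal component, which separated the groups, held 90.8% of the variance, and the biological coefficient of variation was 6.16%. Replicates differed beyond sampling noise (chi-square per degree of freedom 3.48 to 11.5). Log2 ratios used CPM with a pseudocount of 0.5. Alternatives were DESeq2 1.42.0 and its size factors, the likelihood ratio test, other filters, total-count scaling, counts from both strands, a replicate block and leaving out each library. Named were all 39 genes and, from each other list, up to 4 called genes in each direction by size of log2 fold change, provided their higher group averaged 5 CPM or more, and a few of these are not reported here. Older symbols in the table (PKM2, C12orf5 for TIGAR, TCEB2 for ELOB) were matched by name. Members and lists were chosen with earlier results of these data known.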

Additional observations from a re-analysis of the deposited data

Results flagged for a closer look

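Reads on the strand opposite to ANKRD37, which the counts above do not use, numbered 11, 14 and 9 per library with NC siRNA, against 53, 36 and 42 with BNC2 siRNA. Their mean was 0.649 ± 0.124 CPM with NC siRNA and 2.596 ± 0.530 CPM with BNC2 siRNA (SD, n = 3), above every control library. On its own strand ANKRD37 had 54 and 39 counts over the same libraries. The source of the opposite reads was not tested.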

How the results depend on the processing

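Of the 35 genes tested, 29 kept their direction and side of the threshold in all 14 settings, 25 of them called. Across settings, each with the genes its own filter let through, 18 to 21 of the 39 genes were called higher and 7 to 9 lower, and 8084 to 9662 genes in all. HK2 turned sign with both strands counted (log2 fold change -0.040) and with total counts only (-0.055), and ranged from -0.056 to 0.10 with 1 library left out. Reads on the strand opposite to HK2 averaged 10.5 ± 0.400 CPM with NC siRNA and 4.52 ± 0.707 CPM with BNC2 siRNA (SD, n = 3). PGAM1 turned with total counts only (-0.035) and ranged from -0.091 to 0.11 with 1 library left out. Total counts only also brought the median over the 35 genes to 0.13. GAPDH was called with no filter on low counts (0.16), VHL with no filter (0.18) and with edgeR's own filter (0.16), and EGLN1 lost its call with no filter (-0.13). With 1 library left out, 3 to 5 other HIF pathway genes were called higher and 4 to 7 other hypoxia target genes lower. Replicate numbers did not pair the libraries: deviations of same-numbered libraries correlated at -0.21, -0.08 and -0.13, and no library correlated best with its own number. With the numbers as a block, 8400 genes were called in place of 8879, and 19 and 7 of the 35 genes were higher and lower, EGLN1 losing its call. The causes were not tested. ALDOC, EGLN3, CA9 and ANKRD37 lay below the filter, with 1 to 54 counts per group.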

Other observations

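The branches that leave glycolysis at glucose 6-phosphate held calls in both directions. Of 8 pentose phosphate genes tested, 3 were higher (37.5%) and 5 lower (62.5%), against 36.6% and 36.2% of all genes tested. PGD, the second dehydrogenase of the oxidative arm, was at 572, 574 and 570.2 CPM with NC siRNA and 141, 145 and 148 CPM with BNC2 siRNA (log2 fold change -1.98, SE 0.05, edgeR adjusted p = 2.0e-14). It was lower in every BNC2 siRNA library, as was TALDO1, transaldolase (-0.62 ± 0.07, log2 fold change ± SE). Of 9 glycogen genes tested, 7 were higher (77.8%) and 1 lower (11.1%). GYS1, the glycogen synthase of muscle and most other tissues, was at 62.0, 68.1 and 67.7 CPM with NC siRNA and 304, 283 and 284 CPM with BNC2 siRNA (log2 fold change 2.14, SE 0.06, edgeR adjusted p = 4.3e-14). PPP1R3C, a subunit that targets protein phosphatase 1 to glycogen (1.74 ± 0.11), and PGM1, phosphoglucomutase (0.87 ± 0.06), were higher, and PGM2 was lower (-0.59 ± 0.08).

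Of 6 further regulators of glycolysis 4 were tested. MLX (0.61 ± 0.08) and MYC (0.47 ± 0.06) were higher. TXNIP, which restrains glucose uptake, was at 108, 107 and 98.1 CPM with NC siRNA and 27.2, 27.3 and 25.4 CPM with BNC2 siRNA, lower in every BNC2 siRNA library (log2 fold change -1.97, SE 0.07, edgeR adjusted p = 4.6e-13), and MLXIP, a partner of MLX, was lower as well (-0.87 ± 0.08).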
